A study of Mus musculus with 6 samples.

Results

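The carbohydrate response element-binding protein (ChREBP, gene Mlxipl), its paralog MondoA (Mlxip) and 3 of their best-known target genes, Txnip, Arrdc4 and Pklr, were compared between the islets of diabetic db/db mice and those of db/m mice. The 5 genes were chosen by their symbols among the 44713 genes of the count table, with earlier results of these data known. All 5 passed the filter on low counts. RNA-seq libraries were made from the total RNA of pancreatic islets after removal of rRNA, with 3 db/db and 3 db/m mice. All mice were 10-week-old males on a normal diet. The db/db mice are labelled Lepr-/-, a genotype in which the long, signalling form of the leptin receptor is missing from all cells and the mice become obese and diabetic. The controls were db/m littermates, which are labelled wild type. The labels name the strain C57BL/6, whereas the methods of the study name BKS for these mice.

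ChREBP and MondoA are transcription factors that become active when glucose is taken up and phosphorylated. Each binds DNA with the partner protein Mlx, at carbohydrate response elements made of a pair of E-box-like boxes held apart by a short spacer. In β cells ChREBP is known for the glucose-induced transcription of Txnip, whose product binds thioredoxin, and of Pklr, which encodes the pyruvate kinase of liver and red cells. Arrdc4 encodes an α-arrestin related to the Txnip protein, and both proteins are known to restrain glucose uptake.

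The DNA just upstream of the start sites is shown for 4 promoters, those that held a match to either motif searched. Txnip and Pklr held the carbohydrate response element, whereas Mlxipl and Arrdc4 held an E-box alone. Sequences and positions were taken from RefSeq on GRCm38.p6, each sequence reads 5′ to 3′ on the strand of its gene, and capitals mark a match to a motif. The motifs searched on both strands were the E-box CACGTG and the carbohydrate response element CACGNGNNNNNCNCGNG, in which the boxes are separated by 5 bases. The element can hold an E-box within either box. The upstream start of Mlxipl (chr5:135089690-135089889, plus strand) had an E-box, Txnip (chr3:96557757-96557956, plus strand) had the element, Arrdc4 (chr7:68749239-68749438, minus strand) had an E-box, and the downstream start of Pklr (chr3:89136423-89136622, plus strand) had the element.
Mlxipl, upstream start: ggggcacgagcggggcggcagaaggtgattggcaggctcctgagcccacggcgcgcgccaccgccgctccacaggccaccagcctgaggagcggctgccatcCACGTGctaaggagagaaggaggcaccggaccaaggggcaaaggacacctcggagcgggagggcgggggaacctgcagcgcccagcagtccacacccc
Txnip: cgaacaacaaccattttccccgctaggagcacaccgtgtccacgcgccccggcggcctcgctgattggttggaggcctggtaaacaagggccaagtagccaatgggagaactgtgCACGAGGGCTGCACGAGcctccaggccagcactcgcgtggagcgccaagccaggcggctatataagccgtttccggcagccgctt
Arrdc4: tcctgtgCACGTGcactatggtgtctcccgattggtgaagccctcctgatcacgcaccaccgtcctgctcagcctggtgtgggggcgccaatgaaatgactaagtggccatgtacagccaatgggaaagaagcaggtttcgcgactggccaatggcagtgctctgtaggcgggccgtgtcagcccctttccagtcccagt
Pklr, downstream start: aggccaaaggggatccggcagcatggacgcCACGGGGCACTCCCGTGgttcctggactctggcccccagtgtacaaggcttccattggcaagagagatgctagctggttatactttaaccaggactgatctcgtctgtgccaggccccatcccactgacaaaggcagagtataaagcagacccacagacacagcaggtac

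In windows from 250 bases before to 50 bases after the start site, the E-box was found in 7.15% of all 32851 promoters in the RefSeq table, and the carbohydrate response element in 0.365% (120 promoters). The Txnip element read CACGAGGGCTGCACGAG and lay from base -85 to -69, where -1 is the last base before the start site. The Pklr element read CACGGGGCACTCCCGTG and lay from -170 to -154, and it matched on both strands. The E-box of the upstream Mlxipl start lay from -98 to -93 and that of Arrdc4 from -193 to -188. Of the 7 promoter windows of the 5 genes, 4 held a match. The windows of Mlxip, of the downstream Mlxipl start and of the upstream Pklr start held neither motif. A match in letters is a description of the window and was not tested as a binding site.

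**Figure D1:**
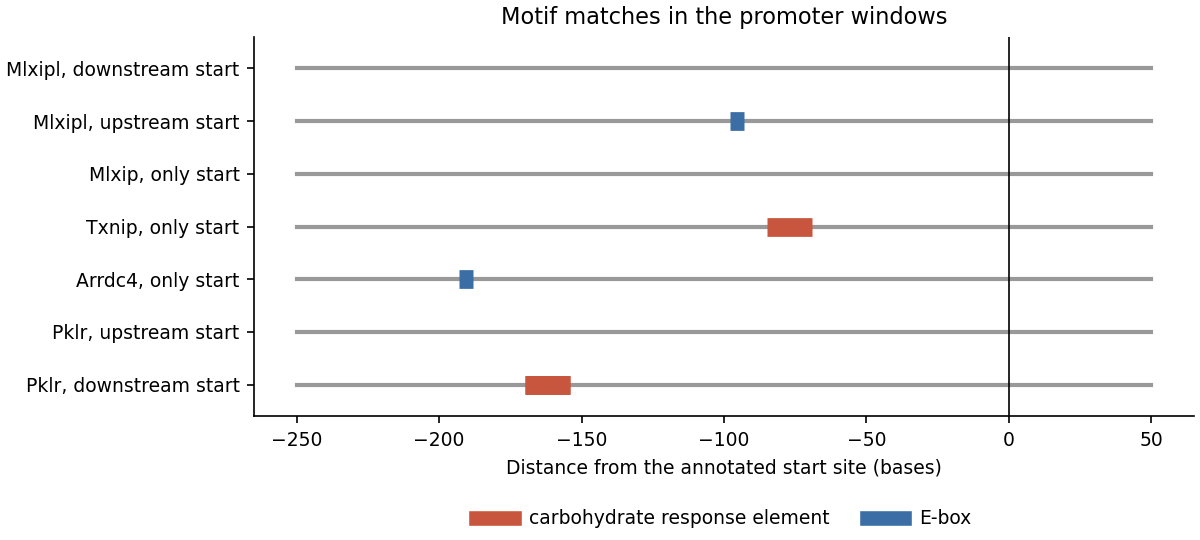
Position of motif matches in the 7 promoter windows of the 5 genes, with the distance from the transcription start site in bases on the x axis and 1 window per line. Matches were drawn at their positions, with 1 match in each of 4 windows and none in the other 3.

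Mlxipl lies on chromosome 5 (135089890 to 135139768, plus strand) and has start sites 17001 bases apart. The upstream start gives the short ChREBP-β type of transcript and the downstream start the full-length ChREBP-α. Pklr, on chromosome 3 (89136122 to 89146815, plus strand), has start sites 481 bases apart, the upstream for the red cell form and the downstream for the liver form. Mlxip lies on chromosome 5 (123394521 to 123457932, plus strand), Txnip on chromosome 3 (96557957 to 96561857, plus strand) and Arrdc4 on chromosome 7 (68736994 to 68749238, minus strand). The values below are per gene, so that the α and β forms of ChREBP, both forms of Pklr and any circular transcripts of a gene were counted together.

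The libraries held 15641797 to 20614531 counts each. Expression levels are given as CPM (counts per 1000000 counts of the library) after scaling by TMM factors, which ran from 0.605 in db/db mouse 1 to 1.75 in db/m mouse 1, and the groups were compared by edgeR's quasi-likelihood test. A level of 3 counts corresponded to 0.110 to 0.241 CPM. The islets held much RNA of the exocrine pancreas in both groups. The 29 acinar markers took 70.8% to 77.2% of the counts in db/db and 53.8% to 69.3% in db/m mice, and no acinar marker was at 0 in any mouse. The 19 β-cell markers, with Ins1 and Ins2, took 0.198% to 0.705% and 0.879% to 4.64% (exact permutation test, two-sided, p = 0.1 for either list, the smallest p that 3 mice against 3 can give). No β-cell marker was at 0 in every mouse and 2 were at 0 in some. db/m mouse 1 stood apart with the largest share on the β-cell markers, and db/db mouse 1 had the smallest. Counts on Lepr (4, 10 and 68 in the db/db group, 37, 25 and 8 in the db/m group) do not check the genotype, because the db allele alters the splicing of the long receptor form.

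At an adjusted p under 0.05, 0 of the 5 genes differed between the groups by edgeR, against 0.619% of the 12760 genes tested (79 genes). At an unadjusted p under 0.05, 2 of the 5 differed, against 14.9% of all genes. These were Mlxipl, which was lower in db/db islets, and Arrdc4, which was higher. DESeq2 called the same genes at its adjusted p, where it called 5.54% of all genes. So did edgeR when db/m mouse 3 was left out, with 2.44% of all genes called. With any other mouse left out, or with the replicate number as a block, edgeR called 0 of the 5 genes. Mlxipl and Arrdc4 were also the 2 genes whose levels did not overlap between the groups, as was the case for 21.1% of all genes tested. The median log2 fold change of the 5 genes was -0.43, and that of all tested genes was -0.00093.

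Mlxipl was measured at 6.50, 15.8 and 14.5 CPM in db/db mice 1, 2 and 3. Its level in db/m mice 1, 2 and 3 was 64.3, 53.0 and 25.4 CPM. Every db/db mouse was below every db/m mouse, and db/m mouse 3 was closest to the db/db group. The means were 12.2 ± 5.02 and 47.6 ± 20.03 CPM (SD, n = 3 each), which is 3.87-fold lower by the fit (log2 fold change -1.95, SE 0.42, adjusted p = 0.0819, unadjusted p = 0.0012). The exact permutation test of the levels over mice (two-sided) gave p = 0.1 for Mlxipl. Without db/m mouse 3, the db/m mouse closest to the db/db group, the log2 fold change was -2.24 with an adjusted p of 0.0304. When any other mouse was left out, the adjusted p of Mlxipl by edgeR was 0.187 to 0.229. With the DESeq2 test the log2 fold change was -1.95 at an adjusted p of 6.9e-04. In such bulk samples, fewer cells of a type and less RNA per cell cannot be told apart.

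The β-cell markers moved with Mlxipl. Of the 18 tested, 15 were lower and 0 higher at an unadjusted p under 0.05, against 1262 lower and 643 higher of all 12760 genes. At the adjusted threshold 6 of the markers fell, against 62 of all genes. The median log2 fold change of the markers was -2.77. Per 10000 reads on the β-cell markers, Mlxipl had 19.8, 22.2 and 24.2 reads in db/db mice and 24.2, 62.2 and 28.0 reads in db/m mice. On this scale db/db mouse 3 and db/m mouse 1 met, and the log2 difference of the means was -0.66 (exact permutation test, two-sided, p = 0.2). Against the same markers without Ins1 and Ins2 the groups did not overlap, with a log2 difference of -0.92 (exact p = 0.1). Of the markers left in that list, only Iapp had a higher mean level than Ero1lb. Ero1lb was at 739, 516 and 565 CPM in db/db and 759, 571 and 888 CPM in db/m mice. It thus fell less than the median marker (log2 fold change -0.29, SE 0.31, adjusted p = 0.701). Mlxipl against the list without Ero1lb was not tested. Against 10 markers of the other endocrine cells the log2 difference was -1.69 (exact p = 0.1). With the mean level of the β-cell markers as a covariate the log2 fold change of Mlxipl was -0.37 (SE 0.63, adjusted p = 0.870), and with that of the acinar markers it was -1.29 (SE 0.32, adjusted p = 0.151). On the log2(CPM + 1) scale the mean level of the β-cell markers was 3.70, 4.64 and 4.53 in db/db and 7.50, 6.07 and 5.96 in db/m mice. This level did not overlap between the groups, so the fit with it cannot separate it from the group. The part of the cell types in the result was not tested beyond these values.

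Mlxip, which encodes the paralog MondoA, differed less. Its level was 34.8, 38.4 and 49.0 CPM in db/db mice and 48.9, 65.0 and 50.8 CPM in db/m mice. db/db mouse 3 and db/m mouse 1 were at about the same level, so the groups overlapped. The means were 40.8 ± 7.37 and 54.9 ± 8.80 CPM (SD, n = 3 each; log2 fold change -0.43, SE 0.24, adjusted p = 0.445). Mlx, the partner that both factors need to bind DNA, had 25.4 ± 12.6 CPM in db/db and 24.9 ± 6.38 CPM in db/m islets (SD, n = 3 each; log2 fold change 0.03, SE 0.36, adjusted p = 0.979).

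Reads on the factors were also set against each other within each library, a comparison chosen after the levels had been seen and one that no scaling factor touches. Of all reads on Mlxipl and Mlxip, Mlxipl took 15.7% (95% Clopper-Pearson interval 12.7% to 19.2%), 29.1% (26.2% to 32.2%) and 22.8% (20.1% to 25.6%) in db/db mice 1, 2 and 3. The shares in db/m mice 1, 2 and 3 were 56.8% (55.1% to 58.6%), 44.9% (42.7% to 47.1%) and 33.3% (30.8% to 35.8%). The shares of the groups did not overlap, and db/m mouse 3 with db/db mouse 2 were the nearest pair. The mean share was 22.5 ± 6.69% in db/db and 45.0 ± 11.8% in db/m islets (SD, n = 3 each, exact permutation test, two-sided, p = 0.1). As a ratio of reads, Mlxipl to Mlxip was 2.87-fold lower in db/db mice (log2 difference -1.52, exact p = 0.1). Mlxipl to Mlx was 0.165, 1.05 and 0.664 in db/db and 3.31, 2.28 and 0.796 in db/m mice, with overlapping groups (log2 difference -1.90, exact p = 0.2). The intervals cover counting error only, and the part of the mix of cells in these ratios was not tested.

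**Figure D2:**
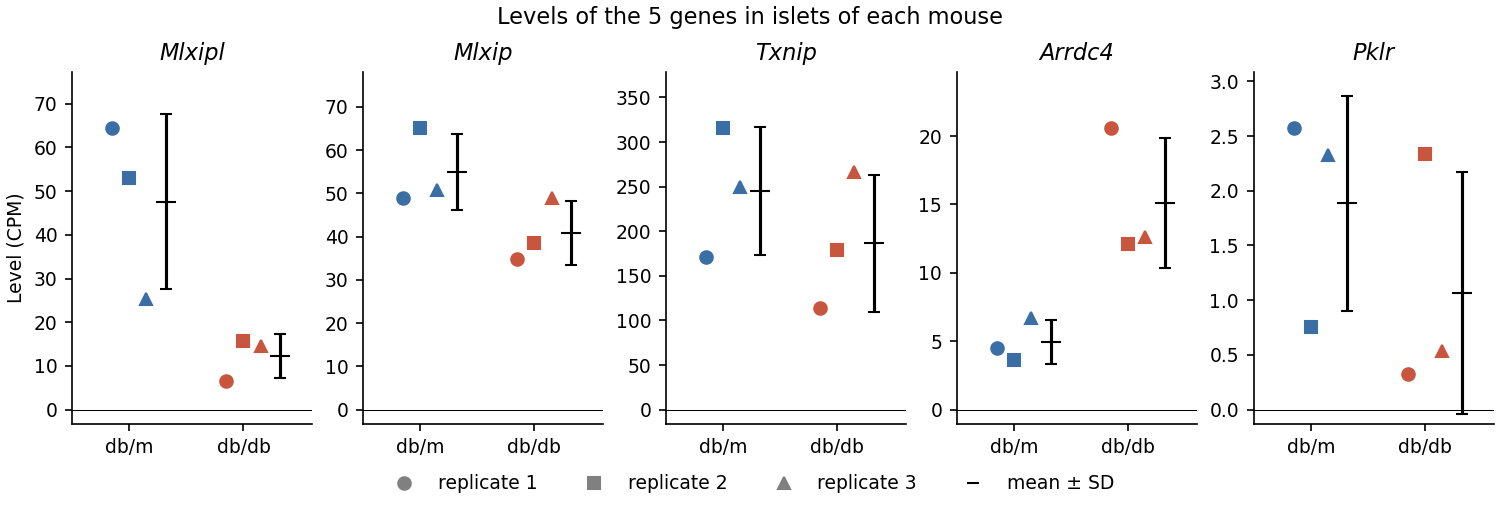
Level of the 5 genes in each mouse, in CPM on a linear y axis of its own for each gene, with db/m and db/db mice as points and the mean ± SD of each group (n = 3) as bars. Mlxipl (lower) and Arrdc4 (higher) had db/db values that did not overlap with those of db/m mice, whereas Mlxip, Txnip and Pklr overlapped, and the SD of Pklr in db/db islets (1.10 CPM) exceeded its mean (1.06 CPM).

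Txnip was the most abundant of the targets. Its level was 114, 179 and 266 CPM in db/db mice and 171, 315 and 249.5 CPM in db/m mice. The groups overlapped, with db/db mouse 3 above 2 of the 3 db/m mice. The means were 186 ± 76.6 and 245 ± 71.9 CPM (SD, n = 3 each; log2 fold change -0.40, SE 0.37, adjusted p = 0.642). The antisense gene Gm15441 covers all of Txnip, 15.7% of the 50-base stretches of Txnip transcripts are shared with it, and whether the counting used the strand is not given in the sources used here. Reads from the gene and its antisense partner could therefore not be told apart. Gm15441 held 90 to 679 counts per mouse against 1416 to 5412 on Txnip, which does not show how many of its reads were counted on Txnip. The 679 counts were those of db/db mouse 3, the db/db mouse with the highest Txnip.

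Arrdc4, the other α-arrestin gene among the targets, was higher in db/db islets. Its level was 20.6, 12.1 and 12.6 CPM in db/db mice and 4.51, 3.61 and 6.71 CPM in db/m mice. All db/db mice were above all db/m mice, and db/db mouse 1 was the highest. The means were 15.1 ± 4.74 and 4.95 ± 1.596 CPM (SD, n = 3 each), a 3.04-fold difference by the fit (log2 fold change 1.61, SE 0.33, adjusted p = 0.0677, unadjusted p = 7.8e-04). The exact permutation test of the levels over mice gave p = 0.1 here as well. Without db/m mouse 3, the db/m mouse closest to the db/db group, the log2 fold change was 1.90 at an adjusted p of 0.0379. When any other mouse was left out, the adjusted p of Arrdc4 by edgeR was 0.143 to 0.211. DESeq2 with all mice gave 1.63 at an adjusted p of 7.7e-04. No annotated gene overlaps Arrdc4, and 0% of its 50-base stretches are shared with other genes.

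The acinar markers moved in the same direction as Arrdc4. All 29 were tested, 1 was higher and 0 lower at an unadjusted p under 0.05, and their median log2 fold change was 0.68. db/db mouse 1, with the highest Arrdc4, also had the highest mean level of acinar markers, 13.5 on the log2(CPM + 1) scale against 11.5 to 12.9 in the other mice. By contrast, db/db mouse 2 was at 12.62, below db/m mouse 3 at 12.84, but had the higher Arrdc4 of these mice (12.1 against 6.71 CPM). With the acinar marker level as a covariate the log2 fold change of Arrdc4 was 1.25 (adjusted p = 0.184), and with the β-cell marker level it was 0.81 (SE 0.62, adjusted p = 0.667). The β-cell marker level did not overlap between the groups, so the fit with it cannot separate it from the group. Per 10000 reads on the β-cell markers, Arrdc4 had 62.7, 17.0 and 21.2 reads in db/db and 1.70, 4.23 and 7.42 reads in db/m mice (log2 difference 2.91, exact permutation test, two-sided, p = 0.1). The β-cell markers took a smaller share of every db/db library than of any db/m library. Dividing by their reads therefore raises any gene in db/db mice. Mlxip, at a log2 fold change of -0.43 by the fit, was at 0.86 on this scale. Without Ins1 and Ins2 in the list the log2 difference was 2.65 (exact p = 0.1). Against the other endocrine markers it was 1.88 and the groups overlapped (exact p = 0.2). The part of these markers in the result was not tested beyond these values.

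The arrestin genes Txnip and Arrdc4 thus stood in different proportion in the groups. Within a library there were 5.53, 14.8 and 21.1 reads on Txnip per read on Arrdc4 in db/db mice. In db/m mice there were 38.0, 87.3 and 37.2. The groups did not overlap, and the ratio was 4.15-fold lower in db/db islets (log2 difference -2.05, exact permutation test, two-sided, p = 0.1). This ratio, too, was chosen after the levels had been seen, and the part of the mix of cells in it was not tested.

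**Figure D3:**
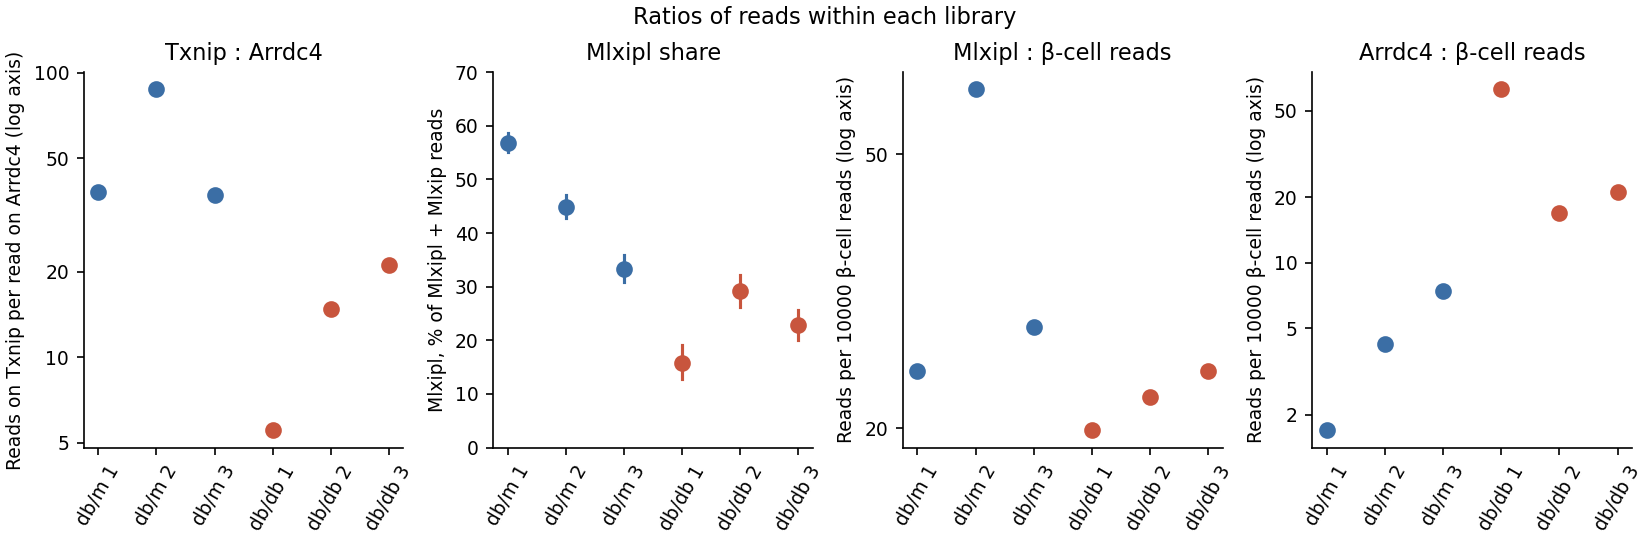
Reads set against each other within each library, with 1 point per mouse: Txnip per read on Arrdc4 (log axis), Mlxipl as a percent of Mlxipl and Mlxip reads (linear axis from 0, bars are 95% Clopper-Pearson intervals), and Mlxipl and Arrdc4 per 10000 reads on the β-cell markers (log axes). The groups were apart in every panel except that of Mlxipl per β-cell reads, where they met near 24.2 reads.

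Pklr had the lowest level of the 5 genes per kilobase of exon. It had 4, 39 and 8 counts in db/db against 70, 13 and 43 counts in db/m mice, which is 0.321, 2.33 and 0.538 CPM against 2.57, 0.757 and 2.33 CPM. The 4 counts of db/db mouse 1 carry an exact Poisson interval of 1.09 to 10.2 counts, and both groups held low and high mice. The means were 1.06 ± 1.10 and 1.88 ± 0.984 CPM (SD, n = 3 each; log2 fold change -0.80, SE 0.76, adjusted p = 0.650), and the spread between mice of a group exceeded the counting intervals, as with 27.7 to 53.3 counts for db/db mouse 2. Without db/db mouse 2 the log2 fold change was -2.11 (adjusted p = 0.288). Hcn3 on the other strand overlaps the end of Pklr and shares 20.5% of its 50-base stretches, with 4 to 109 counts per mouse of its own.

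Pkm, the pyruvate kinase gene of most other tissues, was at 69.7 ± 21.5 CPM in db/db and 107.9 ± 44.7 CPM in db/m islets (SD, n = 3 each; log2 fold change -0.63, SE 0.35, adjusted p = 0.448). There were 37.7 to 143 reads on Pkm per read on Pklr in db/db and 36.2 to 106 in db/m mice (log2 difference 0.56, exact permutation test, two-sided, p = 0.5).

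Levels of different genes were compared per kilobase of exon. In db/m islets the order was Txnip at 87.6 ± 25.7, Mlxipl at 8.51 ± 3.58, Mlxip at 6.54 ± 1.05, Arrdc4 at 1.25 ± 0.404 and Pklr at 0.599 ± 0.313 CPM per kilobase (SD, n = 3). Mlxipl and Mlxip overlapped in this order, whereas every other pair of neighbours was apart in all 3 mice. In db/db islets the order was Txnip at 66.5 ± 27.4, Mlxip at 4.86 ± 0.878, Arrdc4 at 3.82 ± 1.198, Mlxipl at 2.19 ± 0.898 and Pklr at 0.338 ± 0.350 CPM per kilobase (SD, n = 3). Here Mlxip and Arrdc4 overlapped, and the other neighbours did not. ChREBP was thus above Arrdc4 in db/m islets and below it in db/db islets.

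**Figure D4:**
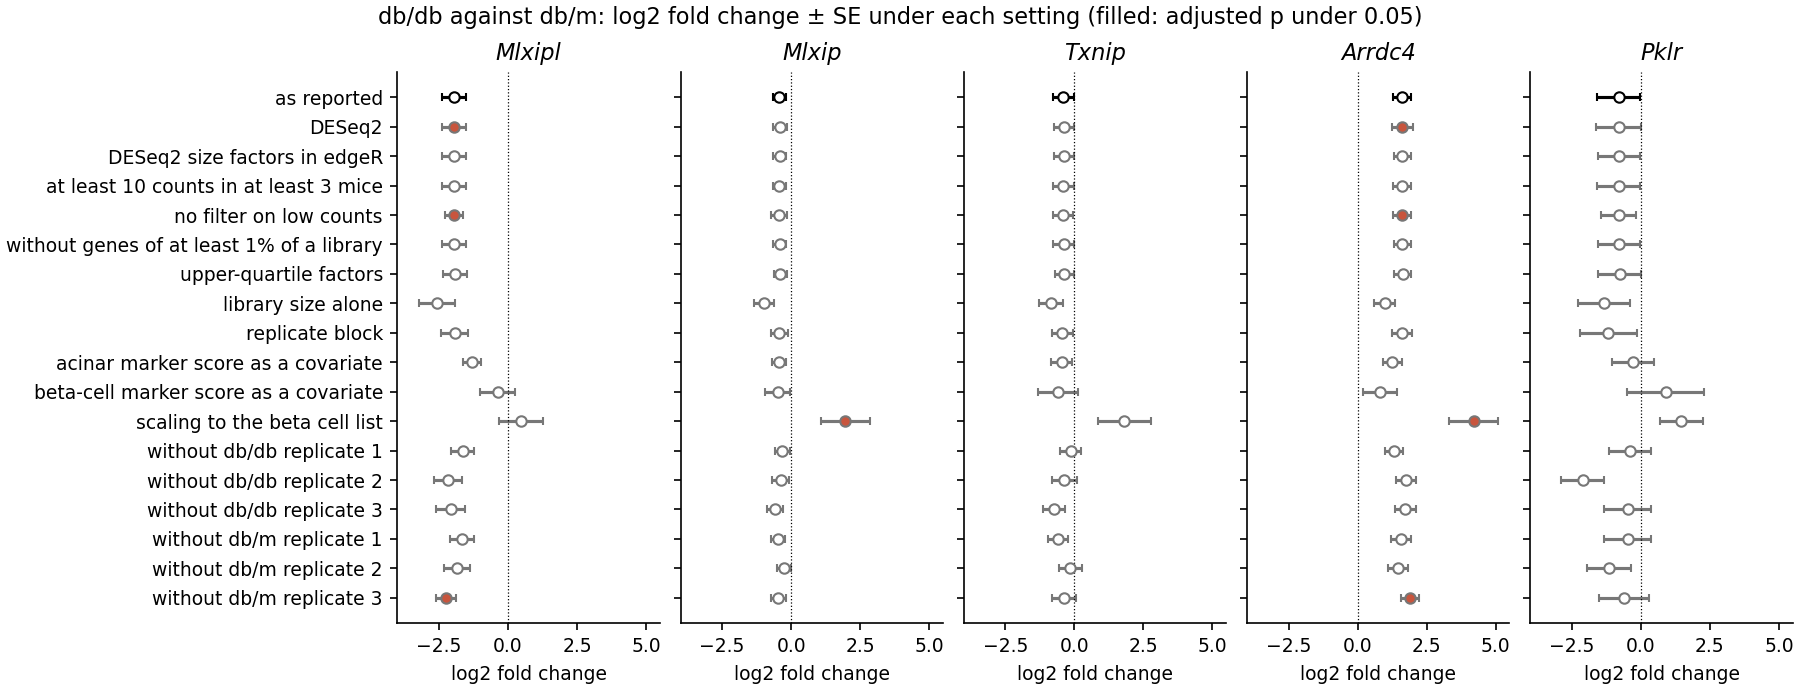
Log2 fold change (db/db minus db/m, x axis) of the 5 genes under the edgeR test with TMM factors and under each alternative setting, with the SE as bars and filled points at an adjusted p under 0.05. Mlxipl stayed below 0 and Arrdc4 above 0, except that Mlxipl was at 0.47 after scaling to the β-cell markers, a scaling that moved the median of all genes to 2.47 and put Mlxip at 1.96.

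The patterns of the 5 genes over the 6 mice were compared by the root mean square difference of their log2(CPM + 1) values, each gene centred on its own mean. Among the 5 genes, Mlxip and Txnip were the closest (0.270) and Mlxipl and Arrdc4 the farthest apart (1.85), with 1.15 between Txnip and Arrdc4. Among 7346 genes with a mean of at least 5 CPM, the likest to Mlxipl were Ank2 (0.0864), Kcnma1 (0.136) and Rims2 (0.143). Those for Mlxip were Mtr (0.0844), Zfp646 (0.0956) and Fzd5 (0.0960), and those for Txnip were Zfp553 (0.113), Arhgef18 (0.146) and Ddx51 (0.168). Arrdc4 was most like Chchd10 (0.155), Tle6 (0.169) and Rpl29 (0.260), and Pklr most like Coro7 (0.178), Cpeb3 (0.214) and Rab3a (0.218). The differences are descriptions over mice that share their groups.

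In the network of Mlx, Max and their partners, 8 of 11 genes were tested. At the adjusted threshold 0 passed by edgeR and at an unadjusted p under 0.05 Mxd1 alone was lower, while the median log2 fold change was 0.14 against -0.00093 over all tested genes. Mxd1, a repressor that pairs with Max and Mlx, had 6.74, 8.73 and 8.002 CPM in db/db and 15.5, 18.99 and 14.998 CPM in db/m mice. All db/db mice were below all db/m mice (log2 fold change -1.07, SE 0.23, adjusted p = 0.0801).

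Of 27 other genes known as ChREBP targets, 21 were tested. Of these, 1 rose and 1 fell at the adjusted threshold, against 17 and 62 of all 12760 genes. At an unadjusted p under 0.05, 2 were higher and 5 lower, against 643 and 1262 of all genes. The median log2 fold change of the list was -0.14. Scd1, the desaturase that makes monounsaturated fatty acids, had 114, 134 and 89.2 CPM in db/db and 28.6, 38.1 and 34.1 CPM in db/m mice, and rose with a log2 fold change of 1.74 (SE 0.26, adjusted p = 0.0246). Slc2a2, the glucose transporter of β cells and liver, had 1.93, 4.54 and 4.64 CPM in db/db and 152, 27.9 and 44.8 CPM in db/m mice, and fell by 4.33 on the log2 scale (SE 0.67, adjusted p = 0.0315). Slc2a2 is also among the β-cell markers. The groups did not overlap for either gene.

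The next by p did not pass the adjusted threshold. Khk, which phosphorylates fructose, had a log2 fold change of 1.24 (SE 0.27, adjusted p = 0.0819). Bhlhe41, a repressor of the circadian clock, had -1.30 (SE 0.33, adjusted p = 0.113), Slc2a5, the fructose transporter, -1.55 (SE 0.48, adjusted p = 0.177), and Acly, which makes cytosolic acetyl-CoA, -0.94 (SE 0.37, adjusted p = 0.284).

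Of 24 glycolytic enzymes, 21 were tested and 0 passed the adjusted threshold by edgeR. At an unadjusted p under 0.05, 1 was higher and 5 were lower, against 643 and 1262 of all 12760 genes. The median log2 fold change of the enzymes was -0.51. Pfkfb2, which makes the activator of phosphofructokinase, had a log2 fold change of -1.42 (SE 0.26, adjusted p = 0.0569), and Eno2, the neuronal enolase, -2.02 (SE 0.55, adjusted p = 0.132). Gapdh had -1.77 (SE 0.50, adjusted p = 0.144) at 1.004 ± 0.353 and 3.45 ± 1.63 CPM (SD, n = 3 each). Gapdh has near-identical pseudogenes, which could split its reads in the authors' counting, so its value is uncertain. Aldoc, an aldolase, had -1.45 (SE 0.52, adjusted p = 0.239). Outside the rule for named genes, and chosen after its values were seen, Ldha, lactate dehydrogenase, had 0.77 (adjusted p = 0.239).

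Of 13 other α-arrestins and members of the thioredoxin system, 11 were tested and 0 passed the adjusted threshold by edgeR, with 1 higher and 1 lower at an unadjusted p under 0.05 and a median log2 fold change of 0.19. Arrdc3, an α-arrestin of the same family as Txnip and Arrdc4, had 9.71, 5.32 and 12.2 CPM in db/db and 20.004, 58.4 and 50.5 CPM in db/m mice. All db/db mice were below the db/m mice, the opposite of Arrdc4 (log2 fold change -2.24, SE 0.45, adjusted p = 0.0654). Txn2, the mitochondrial thioredoxin, had a log2 fold change of 0.70 (SE 0.28, adjusted p = 0.285). Arrdc5 had 0 counts in all 6 mice.

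**Figure D5:**
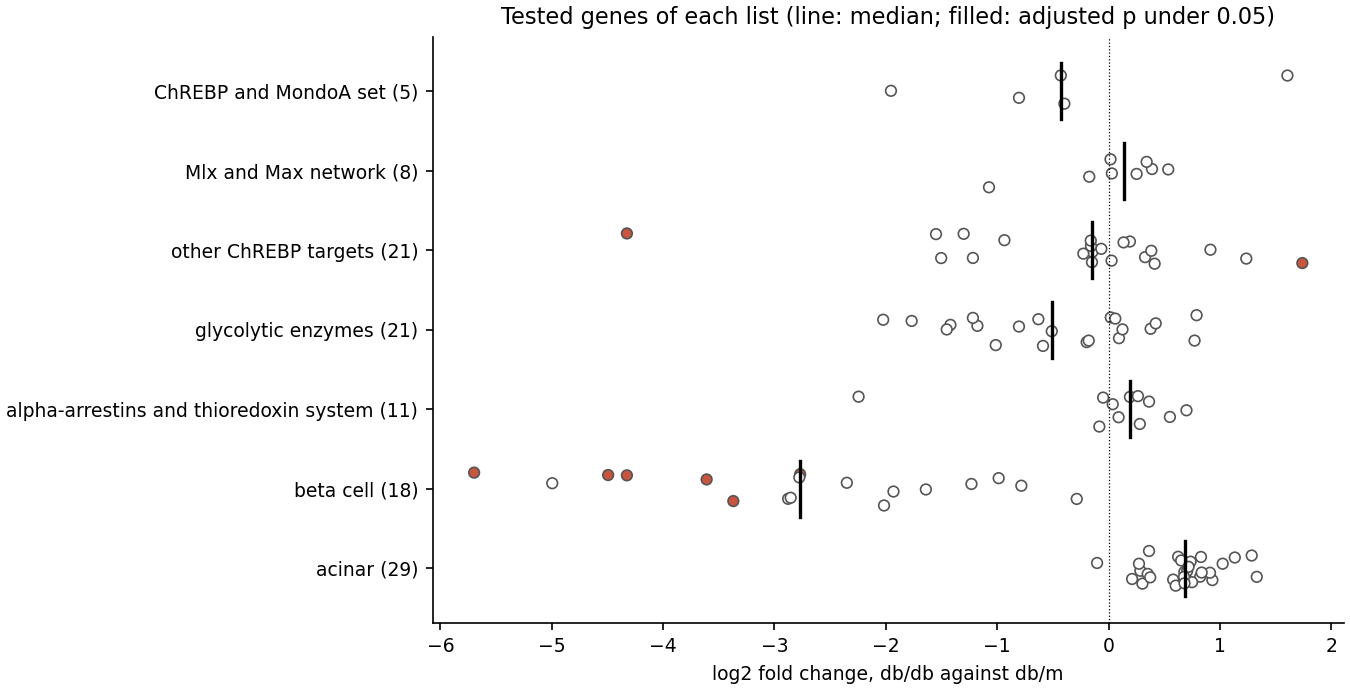
Log2 fold changes (db/db minus db/m, x axis) of the tested genes of the ChREBP and MondoA set, of the lists around it and of the β-cell and acinar markers, 1 point per gene, with the median of each list as a line and filled points at an adjusted p under 0.05. The medians were -0.43 for the 5 genes, 0.14, -0.14, -0.51 and 0.19 for the Mlx and Max network, the other targets, the glycolytic enzymes and the arrestin and thioredoxin list, -2.77 for β-cell markers and 0.68 for acinar markers.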

How the data were processed

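Islets of 3 db/db and 3 db/m mice were isolated by the authors with collagenase and a density gradient, and rRNA-depleted total RNA was sequenced. The authors removed adaptors, N bases and low-quality reads, and the values they deposited are raw, unnormalized counts, 1 column a mouse and 1 row a gene symbol. The genome build was mm10. The methods of the study name TopHat as the aligner, whereas the submitters' processing notes name HISAT2 2.0.4. The counting program, the annotation and the use of the strand are not given in the sources used here.

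Differential expression was tested by the quasi-likelihood method of edgeR 4.0.16 under R 4.3.3, after filterByExpr at its defaults and TMM scaling. P-values of the 12760 genes tested were adjusted by Benjamini and Hochberg's method, with a threshold of 0.05. Dividing a log2 fold change by the square root of its F statistic gave, without sign, the standard error. Exact permutation tests of values per mouse (SciPy 1.17.1) were two-sided, and their smallest p is 0.1. The mice are separate samples by their labels, and p-values measure the spread between them. Library totals of 15641797 to 20614531 counts set the precision, and Poisson and Clopper-Pearson intervals (95%) and the floor of 3 counts cover counting error only. The code was tested on simulated data.

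The 5 genes and the gene lists were chosen with earlier results of these data known. Besides the 5 genes, Mlx and Pkm were always named, and from each list around them every gene past the adjusted threshold and the 4 with the smallest unadjusted p under 0.05. For likeness, the 3 likest genes were named. All symbols of the lists were found, 3 of them under an older symbol (Tkfc as Dak, Spink1 as Spink3, Adgre1 as Emr1). Stretches of 50 bases that transcripts of different genes share were counted on GENCODE M21, and promoters were read from the RefSeq table for GRCm38.p6 with Python 3.11.15. Plots were made in matplotlib 3.10.9.

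The alternatives tried were DESeq2 1.42.0, other scalings and filters, the replicate number as a block, marker scores (mean log2(CPM + 1)) as covariates, scaling to the β-cell markers, other denominators, and leaving out each mouse in turn. Ratios of reads within a library, and leaving out mice for these and for the levels relative to β-cell reads, were chosen after seeing the data. CircRNA counts and data from other mice and cells were not analysed here. The results of some single genes are not reported here.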

Additional observations from a re-analysis of the deposited data

How the results depend on the processing

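Of 17 alternatives, Mlxipl kept its direction in all but the scaling to the β-cell markers, and Arrdc4 in all. With DESeq2 the log2 fold change was -1.95 for Mlxipl (adjusted p = 6.9e-04) and 1.63 for Arrdc4 (adjusted p = 7.7e-04), and without a filter on low counts it was -1.95 (adjusted p = 1.5e-05) and 1.5997 (adjusted p = 4.6e-04). Both were then called, so that 2 of the 5 genes passed under either setting. Of all genes tested, DESeq2 called 707 of 12760 (5.54%), and edgeR without the filter called 888 of 23506. After scaling to the β-cell markers, under which the median of all genes was 2.47, the log2 fold change was 0.47 for Mlxipl, 1.96 for Mlxip, 1.81 for Txnip, 4.20 for Arrdc4 and 1.47 for Pklr. Under this scaling 2 of the 5 genes passed (Mlxip and Arrdc4), against 11243 of all 12760 genes tested. With the β-cell marker score as a covariate, a fit that cannot separate this score from the group, Pklr was at 0.91. Over all alternatives the adjusted p ran from 1.5e-05 to 0.870 for Mlxipl and from 2.1e-04 to 0.667 for Arrdc4. Library size alone moved the median of all genes to -0.59, with Mlxipl at -2.56 and Arrdc4 at 0.98. The count of all genes called, 79 by edgeR, was 707 by DESeq2, 21 with library size alone, 52 with upper-quartile factors, 888 without a filter, 15 with the β-cell score and 11243 after scaling to the β-cell markers. The causes of these changes were not tested.

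The labels do not say that the replicate numbers pair the mice. Across genes, a mouse's departures from its group mean and those of the mouse with its number in the other group correlated at -0.53, -0.20 and -0.32. Mice with different numbers were not compared in this way, so the values cannot exclude a pairing. With the replicate block 16 genes were called, none of the 5 among them (0 of 5), and the log2 fold change was -1.93 for Mlxipl, -0.43 for Mlxip, -0.44 for Txnip, 1.61 for Arrdc4 and -1.18 for Pklr.

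Leaving out each mouse in turn gave a log2 fold change of -2.24 to -1.64 for Mlxipl, -0.57 to -0.26 for Mlxip, -0.74 to -0.13 for Txnip, 1.33 to 1.90 for Arrdc4 and -2.11 to -0.38 for Pklr, the lowest for Pklr without db/db mouse 2. It gave 0 to 2 of the 5 genes called, 2 without db/m mouse 3, and 10 to 333 of all genes. The log2 differences of the ratios ran from -2.46 to -1.49 for Txnip to Arrdc4, -1.87 to -1.17 for Mlxipl to Mlxip, -2.50 to -1.12 for Mlxipl to Mlx and 0.17 to 1.19 for Pkm to Pklr. Relative to β-cell reads they ran from -0.92 to -0.24 for Mlxipl, 0.25 to 1.28 for Mlxip, 0.088 to 1.35 for Txnip, 2.33 to 3.399 for Arrdc4 and -0.47 (without db/db mouse 2) to 0.62 (without db/m mouse 3) for Pklr, which was also below 0 without db/m mouse 1 (-0.084) or 2 (-0.14).

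Relative to β-cell reads, Mlxip and Txnip were at log2 differences of 0.86 each (exact p = 0.3 and 0.5), and against the other endocrine markers at -0.17 and -0.18. Pklr was at 0.13 (exact p = 0.6), at -0.13 without Ins1 and Ins2 and at -0.90 against the other endocrine markers. Depth was lowest for Pklr among the 5 genes, with 4 to 70 counts per mouse.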

Other observations

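Immediate-early genes, which respond within minutes to stimulation of cells or to handling of tissue, were lower in db/db islets. Of 19 tested, 10 fell and 0 rose at the adjusted threshold by edgeR, against 62 and 17 of all 12760 genes. The median log2 fold change of the immediate-early genes was -2.47. They took 0.00935% to 0.0243% of the counts in db/db and 0.129% to 0.235% in db/m mice (exact permutation test, two-sided, p = 0.1). Of 10 heat shock genes, 0 passed the adjusted threshold by edgeR, with a median of -0.91. At an unadjusted p under 0.05, 6 were lower, against 1262 of all 12760 genes. The relation of both lists to the 5 genes was not tested.

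Among markers of other cells, the median log2 fold change was -0.73 for 7 endocrine genes outside β cells, 0.16 for 11 duct genes, 1.15 for 9 stromal genes, -0.53 for 8 endothelial genes and 0.65 for 9 leukocyte genes. By edgeR 0 of these passed the adjusted threshold. At an unadjusted p under 0.05, 0 endocrine, 2 duct, 1 stromal and 1 leukocyte genes were higher, and 0 endocrine, 1 duct, 1 endothelial and 1 leukocyte genes were lower.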
